A study of Mus musculus with 9 samples.

Results

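Solute carriers are membrane proteins that move ions, amino acids, sugars, metals and metabolites across the plasma membrane and the membranes of organelles, and their mouse genes carry symbols that begin with Slc. The Slc genes were taken as every listed gene whose symbol is Slc followed by a family number, a letter and a member number, with Slc1a2 and Slc7a10 left out by the rule. Of the 375 such genes in the mouse annotation, 209 had a value in at least one comparison, among 12275 genes with a value in either. The comparison of avoiding (AV) with balancing (BA) mice held 171 Slc genes of 9872 genes, the comparison of approaching (AP) with BA mice held 200 of 11820, and 162 were in both. Each had passed the authors' filter on low counts, and 156 of the 171 and 185 of the 200 had a mean of at least 20 normalized units. A gene at low levels in one group may have passed through the other group alone, so counts over these genes are not counts over all 375.

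All mice were of the B6.Cg-Tg(Thy1-YFP)HJrs/J line, in which a Thy1 promoter drives yellow fluorescent protein (YFP) in a subset of pyramidal neurons. They were grouped by their behaviour in a conflict between a reward and an aversive place, the A/A Conflict Task, into 3 BA mice that balanced both drives, 3 AV mice and 3 AP mice. The labels name no treatment or further allele, and the age of the mice is not given in the sources used here. Each library held RNA of YFP-positive, propidium-iodide-negative cells of the amygdala of 1 mouse, so the mouse is the replicate, and 2 AV mice were used since the authors removed replicate 2 as an outlier. The values are normalized signals per gene and mouse, set on a common scale by the authors within each of 2 tables, and AV and AP mice were never compared with each other. The 3 BA mice serve both comparisons, so the comparisons are not independent.

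The labelled cell type was checked against markers of the cells an amygdala sort could hold, and markers of other cells, oligodendrocytes above all, were well represented. In the BA vs AV table the 12 oligodendrocyte markers summed to 203479, 251845 and 203530.0 in the BA mice and to 57436 and 89112 in the AV mice, and 10 of the 12 were called lower in AV mice by limma at an adjusted p under 0.05, where 16.2% of all genes were called lower and 13.6% higher. The 3 pyramidal neuron markers with a value there, Camk2a, Ddn and Nrgn, summed to 93.3, 121 and 106 in the BA mice and 2264 and 4806 in the AV mice, and all 3 were called higher. The other 12 markers of the 15, Snap25, Rbfox3, Neurod6 and Tbr1 among them, were not analysed here. The 10 astrocyte markers summed to 5249, 4209.7 and 5111 in the BA mice and 6525 and 12978 in the AV mice, with 3 called higher, and the 3 microglial markers to 253, 237 and 354 and 722 and 939, with all 3 called higher. Of the remaining lists, 1 of 5 endothelial, 1 of 2 interneuron, 0 of 1 pericyte and 1 of 2 choroid plexus and ependymal markers were called, each of the called ones lower. All 12 microglial markers of the BA vs AP table had an unadjusted p under 0.05 and stood higher in AP mice, with sums of 1765, 1622 and 3333 in the BA mice and 6154, 4484 and 8055 in the AP mice, while oligodendrocyte sums overlapped, at 238140.0, 305940.0 and 247435 and 242735, 296057 and 260645. The 4 pyramidal markers there summed to 175, 199 and 181 in the BA mice and to 118, 1537 and 2543 in the AP mice, so AP replicate 1 lay below the BA mice and the other AP mice above them. The 12 astrocyte markers summed to 6742, 5538 and 6234 and 4399, 13972 and 7568. None of the markers was called there, and an unadjusted p under 0.05 was found for 1 astrocyte, 1 pyramidal and 1 of 11 endothelial markers and for 0 of 3 interneuron, 0 of 3 pericyte and 0 of 1 choroid plexus and ependymal markers. The transporter values come from the same libraries, and the part of these marker levels in any difference between them was not tested. In such bulk libraries fewer cells of a type and less RNA per cell cannot be told apart.

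**Figure D1:**
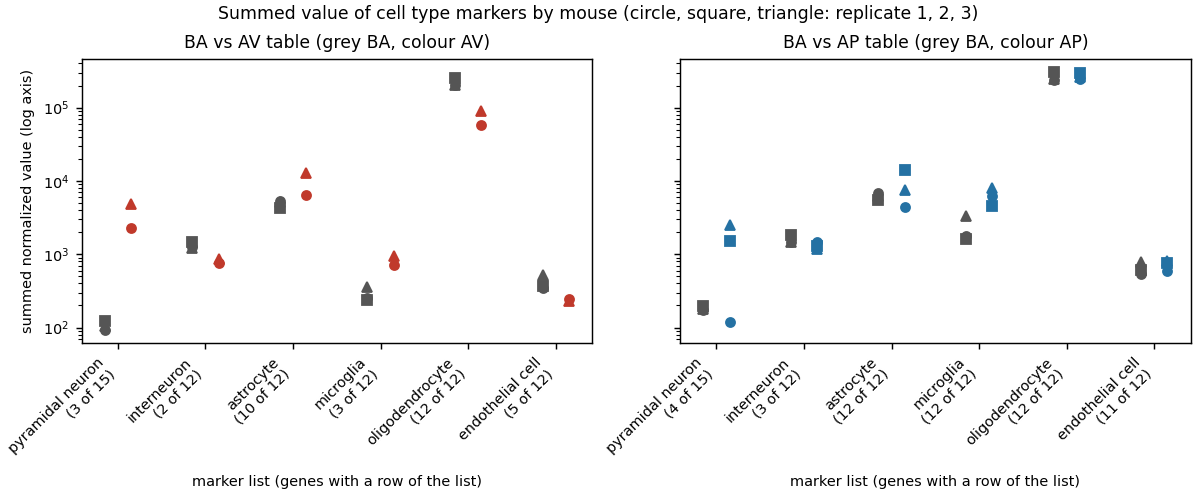
Summed normalized value (log axis, not scaled by gene length) of 6 cell type marker lists in each mouse, in the BA vs AV table on the left and the BA vs AP table on the right. Grey marks are BA mice, red marks AV mice, blue marks AP mice, the shape gives the replicate number, and the count under each list gives how many of its genes had a value. Oligodendrocyte sums were the highest of the 6 lists in every mouse, below the BA range in both AV mice and overlapping in the AP mice, while microglial sums of the AP mice lay above those of the BA mice.

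Neurons set their chloride gradient by the balance of NKCC1 (Slc12a2), which brings chloride in with sodium and potassium, and KCC2 (Slc12a5), which lets it out with potassium. Glutamate and glutamine travel between astrocytes and neurons through plasma membrane carriers of the Slc1 and Slc38 families, glucose enters glia and endothelium mainly through GLUT1 (Slc2a1) and neurons mainly through GLUT3 (Slc2a3), and lactate crosses through monocarboxylate carriers of the Slc16 family. The Slc25 family sits in the inner mitochondrial membrane and exchanges nucleotides, phosphate and amino acids between cytosol and matrix. The vesicular glutamate and GABA transporters that define transmitter type (Slc17a6, Slc17a7, Slc17a8 and Slc32a1) were not analysed here.

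The 250 bases before the transcription start are given, as examples of genes called in the AV comparison, for the 2 Slc genes with the smallest p called higher (Slc12a5 and Slc25a22) and the 2 called lower (Slc24a2 and Slc12a8) among those with an entry in the RefSeq promoter table. They lie at chr2:164960596-164960845 on the plus strand, chr7:141437875-141438124 on the minus strand, chr4:87230541-87230790 on the minus strand and chr16:33517078-33517327 on the plus strand of GRCm38.p6, and are written 5′ to 3′ on the strand of the gene, with a GC box in capitals.
Slc12a5: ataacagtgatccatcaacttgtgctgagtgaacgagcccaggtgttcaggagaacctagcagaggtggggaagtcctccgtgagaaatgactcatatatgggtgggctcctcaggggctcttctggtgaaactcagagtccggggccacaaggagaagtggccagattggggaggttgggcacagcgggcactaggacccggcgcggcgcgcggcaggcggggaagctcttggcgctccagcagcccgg
Slc25a22: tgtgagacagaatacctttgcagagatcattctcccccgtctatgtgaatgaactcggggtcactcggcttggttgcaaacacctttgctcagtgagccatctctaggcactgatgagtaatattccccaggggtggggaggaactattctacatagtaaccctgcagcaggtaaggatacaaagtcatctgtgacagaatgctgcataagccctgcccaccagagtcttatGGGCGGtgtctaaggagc
Slc24a2: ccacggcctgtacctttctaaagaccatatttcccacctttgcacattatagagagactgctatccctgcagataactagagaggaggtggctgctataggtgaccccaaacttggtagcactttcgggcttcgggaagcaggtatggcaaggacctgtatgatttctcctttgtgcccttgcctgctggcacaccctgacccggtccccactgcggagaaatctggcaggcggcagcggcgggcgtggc
Slc12a8: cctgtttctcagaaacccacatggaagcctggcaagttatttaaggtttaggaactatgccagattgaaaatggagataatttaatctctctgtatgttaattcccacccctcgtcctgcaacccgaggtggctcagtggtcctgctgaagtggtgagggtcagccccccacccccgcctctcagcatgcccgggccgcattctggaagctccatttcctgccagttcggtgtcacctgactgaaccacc
Their GC content was 61.2%, 50%, 56% and 53.2%, in that order. Such windows were searched on both strands for a GC box (GGGCGG), a cAMP response element (TGACGTCA), an E-box (CACGTG), the core of an amino acid response element (TGATGCAA) and a TATA box (TATAAA), none of which contains another. Of the 4 windows, Slc25a22 alone held one of these motifs, a GC box. A GC box was in 52.6% of 19 windows of Slc genes called higher, 60.7% of 28 called lower and 67% of 88 not called, beside 61.3% of 7716 genes of the BA vs AV table and 33% of all 27025 windows. The other motifs were rarer. An E-box was in 5.26%, 10.7% and 11.4% of these 3 sets of Slc genes beside 8.44% of genes of the BA vs AV table and 6.04% of all windows. A TATA box was in 10.5%, 7.14% and 4.55%, beside 6.05% of the table and 13% of all windows. A cAMP response element was in 2 windows of genes called lower and in none of the other Slc windows, beside 2.86% of the table and 1.62% of all windows. An amino acid response element core was in 1 window of a gene not called, beside 0.49% and 0.83%.

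Among BA mice, the level per kb of exon was highest for carriers of ions, choline and amino acids. Slc12a2 stood at 738 ± 107 normalized units per kb (SD, n = 3), and Slc44a1, a choline transporter, at 569.6 ± 95.5, Slc38a2, a sodium-coupled carrier of neutral amino acids, at 557 ± 139.8 and Slc24a2, a potassium-dependent sodium/calcium exchanger, at 435 ± 42. They were followed by Slc48a1, a heme transporter, at 362 ± 49.2, Slc38a6 at 319 ± 53.3, the glycine transporter Slc6a9 at 256 ± 71.8 and the astrocytic glutamate transporter Slc1a3 at 205 ± 45.1. The ranges of 1 SD overlapped between every pair of neighbours among these 8 genes. All Slc genes together made up 1.67 to 1.73% of the summed signal of the BA mice and 1.29 and 1.6% of that of the AV mice. In the BA vs AP table the shares were 1.64 to 1.68% in the BA mice and 1.49 to 1.67% in the AP mice.

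The first comparison asked how AV mice differed from BA mice. Slc12a2, Slc24a2, Slc44a1, Slc38a2 and Slc6a9, abundant carriers of ions, choline or amino acids, were lower in AV mice. They stood at 0.26 to 0.34 times the BA mean. A set of carriers led by Slc12a5, Slc25a22, Slc38a1 and Slc7a8, at low levels in BA mice, was higher. That split by level was not general. Slc1a3, Slc25a5, Slc25a4 and Slc25a23, called higher in AV mice, ranked 9, 10, 15 and 27 per kb in BA mice. By limma on log2(value + 1), with Benjamini-Hochberg adjustment over all 9872 genes and a threshold of 0.05, 59 of 171 Slc genes were called, which is 34.5% against a background of 29.7% of all genes. In AV mice 22 of them rose, beside 13.6% of all genes, and 37 fell, beside 16.2%. The groups did not overlap for these 59 genes and 46 more, so that 105 of 171 (61.4%) were apart, beside 58.9% of all genes. Of the 105, 46 lay higher in AV mice, beside 27.7%, and 59 lower, beside 31.3%. An absolute log2 fold change over 1 was found for 58 Slc genes (33.9%), beside 27.5%. The median log2 fold change was -0.17 over the Slc genes and -0.03 over all genes, and with 1 mouse left out that of the Slc genes ran from -0.22 to -0.1. The count fell to 28, 27 and 36 without BA replicate 1, 2 and 3. The matching counts over all genes are not given here, so a move of the Slc genes alone cannot be read from these. Each AV mouse was left out in turn as well, where the lone AV mouse is taken to vary like the BA mice. In all 5 of these fits 22 genes were called, namely Slc12a2, Slc12a5, Slc12a8, Slc20a2, Slc24a2, Slc24a3, Slc25a13, Slc25a22, Slc25a23, Slc25a27, Slc25a45, Slc38a1, Slc38a2, Slc10a7, Slc16a4, Slc19a2, Slc22a21, Slc44a1, Slc35f1, Slc41a2, Slc45a3 and Slc2a4rg-ps. The other 37 called genes lost the call in at least 1 of them, and none changed direction.

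**Figure D2:**
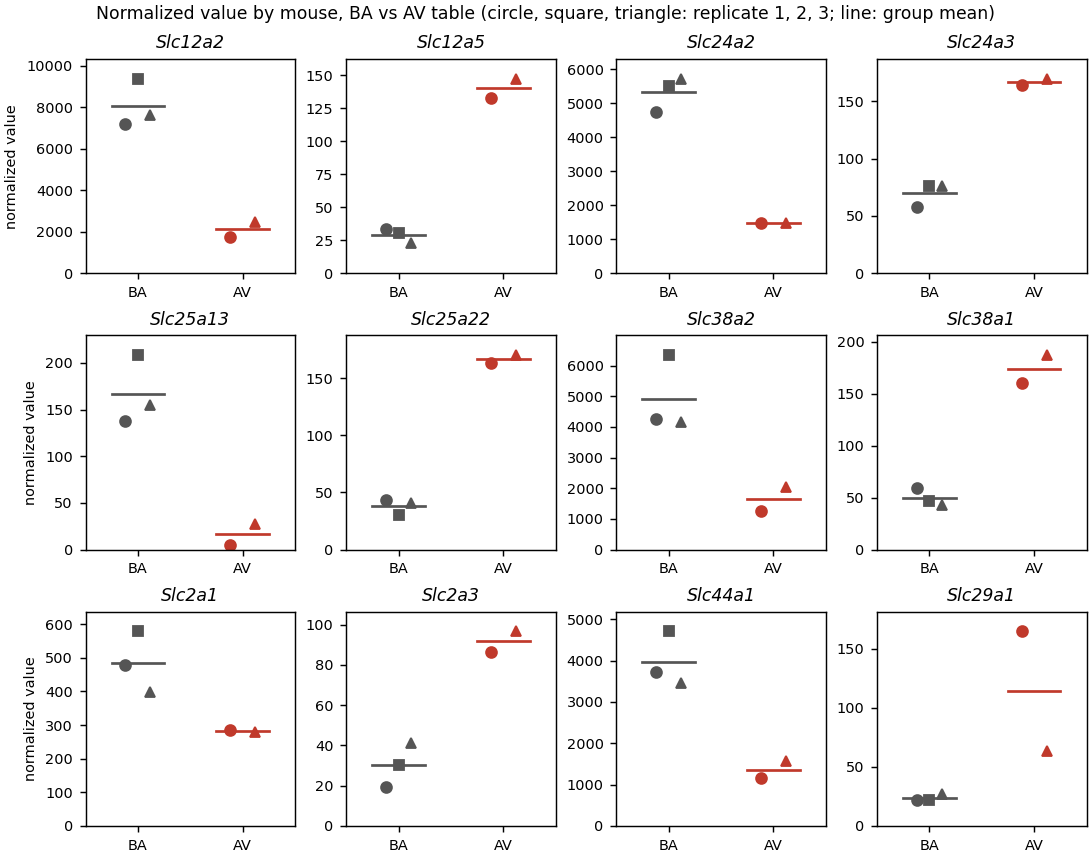
Normalized value (linear axis from 0) of 12 Slc genes in each mouse of the BA vs AV table. Grey marks are the 3 BA mice, red marks the 2 AV mice, the shape gives the replicate number and the line the group mean. The groups do not overlap in any of the 12 panels, with Slc12a2, Slc24a2, Slc25a13, Slc38a2, Slc2a1 and Slc44a1 lower in AV mice and the other 6 higher, and Slc2a1 missed the threshold with an adjusted p of 0.054.

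The inorganic ion transporters moved both ways. Of 26 with a value, 4 rose and 6 fell in AV mice (38.5% called, beside 29.7% of all genes), and their median log2 fold change was -0.06, or -0.13 to 0.02 with 1 mouse left out, above 0 without BA replicate 3. Slc12a2 (NKCC1) had values of 7169, 9381 and 7636 in the BA mice and 1767 and 2475 in the AV mice, so both AV mice lay below every BA mouse (log2 fold change -1.94, SE 0.26, adjusted p = 0.0041). Slc12a5 (KCC2), which neurons use to export chloride, had values of 33.5, 30.1 and 22.9 in the BA mice and 133 and 147 in the AV mice, all AV values being above all BA values (log2 fold change 2.26, SE 0.25, adjusted p = 0.0032). The importer stood lower and the exporter higher in the same AV libraries, in which oligodendrocyte markers were also lower and pyramidal markers higher. Slc12a8, another member of the cation-chloride cotransporter family, fell to near the level of 3 reads, with values of 71.5, 71.8 and 50.6 in the BA mice and 5.72 and 13.2 in the AV mice (log2 fold change -2.73, SE 0.36, adjusted p = 0.0041). Slc24a2 had values of 4742, 5491 and 5725 in the BA mice and 1466 and 1482 in the AV mice (log2 fold change -1.85, SE 0.22, adjusted p = 0.0033), while its relative Slc24a3, a potassium-dependent sodium/calcium exchanger as well, had values of 58.1, 76 and 76.3 in the BA mice and 165 and 170.0 in the AV mice (log2 fold change 1.25, SE 0.23, adjusted p = 0.0095). The sulfate transporter Slc26a2 was lower with a wide spread between the AV mice, at 123, 114 and 116 in the BA mice and 10.1 and 58.3 in the AV mice (log2 fold change -2.21, SE 0.63, adjusted p = 0.039), and its log2 fold change was -3.41 to -1 with 1 mouse left out. Slc9a5, a sodium/proton exchanger of the brain, was higher but low in level, at 4.97, 5.54 and 11.1 in the BA mice and 18.3 and 49.9 in the AV mice (log2 fold change 2.01, SE 0.49, adjusted p = 0.023). Also called were the phosphate importer Slc20a2 (log2 fold change -1.5), the anion exchangers Slc4a2 (-1.22) and Slc4a3 (0.8). The sodium/calcium exchanger Slc8a1 at 1138, 1440.2 and 1128 against 1661 and 1557, the bicarbonate cotransporter Slc4a4 at 1511, 1238 and 1509 against 1617 and 2948 and the bicarbonate transporter Slc4a10 at 164, 133 and 129 against 290.3 and 161 (BA against AV mice) had log2 fold changes of 0.39, 0.63 and 0.61 and were not called.

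Of 35 mitochondrial carriers 6 were called higher and 5 lower (31.4%, near the 29.7% of all genes), with a median of 0.27. This median was 0.09 without AV replicate 3 and -0.06 without AV replicate 1, so its sign rested on 1 mouse. The carriers of glutamate and aspartate did not move together. Slc25a22, the mitochondrial glutamate carrier, had values of 43.7, 30.5 and 40.5 in the BA mice and 163 and 170.2 in the AV mice (log2 fold change 2.11, SE 0.24, adjusted p = 0.0033), and its near relative Slc25a18 had values of 91.5, 65.3 and 67.5 in the BA mice and 147 and 345 in the AV mice (log2 fold change 1.6, SE 0.39, adjusted p = 0.023). Slc25a13 (citrin), an aspartate/glutamate exchanger of the malate-aspartate shuttle, had values of 137, 208 and 155 in the BA mice and 4.95 and 27.4 in the AV mice and the lowest log2 fold change of all 171 Slc genes (log2 fold change -3.67, SE 0.61, adjusted p = 0.007). The second exchanger of that kind, Slc25a12 (aralar), was at 390.1, 258 and 313 in the BA mice and 247 and 302 in the AV mice, a log2 fold change of -0.21 that was not called. With 1 mouse left out the log2 fold change of Slc25a13 ran from -4.8 to -2.54.

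Slc25a23, a calcium-regulated ATP-Mg/phosphate carrier, had values of 402, 509 and 499 in the BA mice and 1365 and 1337 in the AV mice (log2 fold change 1.53, SE 0.22, adjusted p = 0.0051). Slc25a21, the oxodicarboxylate carrier, was at 2, 3.83 and 1.99 in the BA mice, all at or under the level of 3 reads, and at 31.2 and 10.3 in the AV mice, at least 3.65-fold higher. It can have passed the filter on low counts through the AV mice alone and so had to differ, and its call among the 6 is no support for a change of the class. The adenine nucleotide carriers Slc25a4 and Slc25a5, which pass ATP to the cytosol, had values of 385, 305 and 293 against 603 and 532 and of 333, 288 and 298 against 453 and 609.6 (BA against AV mice), and were called higher with log2 fold changes of 0.8 and 0.78. Both calls were lost when each mouse was centred on its own median, and 19.8% of the 75-base stretches of Slc25a5 also occur in other genes, chiefly Gm5560. The phosphate carrier Slc25a3 had a log2 fold change of 0.45 and was not called. On the lower side, Slc25a27, an uncoupling protein of the brain, had values of 547, 359 and 359.8 in the BA mice and 161 and 109.5 in the AV mice (log2 fold change -1.63, SE 0.3, adjusted p = 0.0093), and Slc25a45 values of 46.2, 50.1 and 61 in the BA mice and 20.3 and 14.2 in the AV mice (log2 fold change -1.56, SE 0.26, adjusted p = 0.0067). The pyrimidine nucleotide carrier Slc25a36 was also lower, by a log2 fold change of -1.12.

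**Figure D3:**
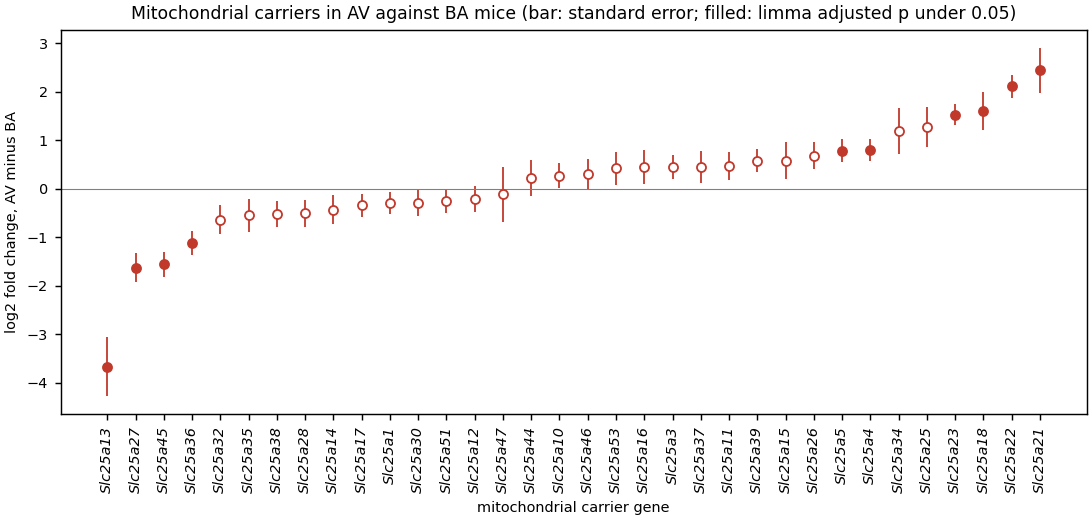
Log2 fold change of the mitochondrial carriers reported here, AV minus BA, on the log2(value + 1) scale, in order of size, with standard errors from limma. Filled points passed an adjusted p of 0.05 and open points did not. The points run from Slc25a13 at -3.67 to Slc25a21 at 2.44, a fitted value over BA mice under the level of 3 reads, with 6 filled points above 0 and 24 open points.

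Among 21 amino acid transporters 4 rose and 6 fell (47.6%, beside 29.7% of all genes). The median was 0.50, and it was 0.08 without AV replicate 3 and 0.84 without AV replicate 1. The 2 sodium-coupled neutral amino acid transporters best known for glutamine moved in opposite directions. Slc38a2 (SNAT2) had values of 4246, 6348 and 4170.5 in the BA mice and 1259.5 and 2027 in the AV mice (log2 fold change -1.59, SE 0.31, adjusted p = 0.012). Slc38a1 (SNAT1), which neurons use to take up glutamine, had values of 59.1, 47.1 and 43.1 in the BA mice and 160.3 and 187 in the AV mice (log2 fold change 1.79, SE 0.24, adjusted p = 0.0041). Slc7a8 (LAT2), a light chain that exchanges neutral amino acids, had the largest increase of the 171 genes, at 35.2, 26.6 and 92.9 in the BA mice and 205 and 338 in the AV mice (log2 fold change 2.54, SE 0.53, adjusted p = 0.014). BA replicate 3 stood above the other BA mice there, and the call was lost without BA replicate 1 or 2. The paired heavy chain Slc3a2 and the second light chain Slc7a5 were at 418, 327 and 336 against 339.7 and 511 and 98.7, 85 and 87 against 116 and 172 (BA against AV mice), with log2 fold changes of 0.22 and 0.65 that were not called. The same holds for the cystine/glutamate exchanger Slc7a11, with 646, 319 and 669 against 595 and 1148 and a log2 fold change of 0.68. Slc1a3 (GLAST), the glutamate transporter of astrocytes, had values of 1862, 1319.7 and 2064 in the BA mice and 3009.6 and 5851 in the AV mice (log2 fold change 1.29, SE 0.35, adjusted p = 0.034), beside the higher astrocyte sums of the same mice. The lysosomal proton-coupled carrier Slc36a1 was higher too, at 97.3, 114 and 53.8 in the BA mice and 182 and 306 in the AV mice (log2 fold change 1.47, SE 0.39, adjusted p = 0.031), and the calls of both were lost in 4 of the 5 fits with 1 mouse left out. Slc6a9 (GlyT1), which clears glycine from around synapses, had values of 1512, 1546 and 890.2 in the BA mice and 243 and 471 in the AV mice (log2 fold change -1.91, SE 0.38, adjusted p = 0.012). Slc38a6 followed at 2397, 2120.4 and 2935 in the BA mice and 905 and 1233 in the AV mice (log2 fold change -1.22), with 15.8% of its 75-base stretches shared with other genes. Slc43a2, the lysosomal peptide and histidine carrier Slc15a4 and the lysosomal arginine sensor Slc38a9 were called lower as well, by log2 fold changes of -1.08, -1.06 and -1.

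Sugar transporters numbered 10, with 2 called higher and 3 lower, beside 13.6% and 16.2% of all genes. Slc2a3 (GLUT3) had values of 19.6, 30.4 and 41.4 in the BA mice and 86.6 and 96.7 in the AV mice (log2 fold change 1.62, SE 0.33, adjusted p = 0.013). Slc2a1 (GLUT1) had values of 478, 579 and 398 in the BA mice and 285 and 278 in the AV mice, which did not overlap, but missed the threshold (log2 fold change -0.77, SE 0.24, adjusted p = 0.054), and it passed when each mouse was centred on its own median. Slc45a3, a sucrose and proton symporter family member, had values of 61.4, 75.2 and 56.2 in the BA mice and 4.93 and 16.5 in the AV mice (log2 fold change -2.67, SE 0.45, adjusted p = 0.0071), with 11.3% of its 75-base stretches shared, chiefly with Gm29103, and its relative Slc45a4 had values of 64, 62.4 and 87.6 in the BA mice and 129 and 204 in the AV mice (log2 fold change 1.19, SE 0.29, adjusted p = 0.024). The glucose 6-phosphate carriers of the endoplasmic reticulum Slc37a1 and Slc37a4 were lower, by log2 fold changes of -1.03 and -0.88. The median of the sugar transporters was -0.32, and it was -0.05 without AV replicate 3 and -0.41 without AV replicate 1, and 0.12 over the 5 with a mean of at least 50.

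The 21 metal ion transporters gave 3 called higher and 2 lower (23.8%, beside 29.7% of all genes). Their median was 0.08, and it was 0.2 without AV replicate 3, -0.06 without AV replicate 1 and -0.03 without BA replicate 3. Slc39a8 (ZIP8), which imports zinc and manganese, was at 4.02, 17.5 and 12.9 in the BA mice and 45.7 and 35.9 in the AV mice (log2 fold change 1.93, SE 0.54, adjusted p = 0.035), and BA replicate 1 was at the level of fewer than 3 reads. The magnesium carrier Slc41a2 had values of 20.9, 18 and 24.7 in the BA mice and 62.9 and 92.5 in the AV mice (log2 fold change 1.81, SE 0.27, adjusted p = 0.0051), and the zinc importer Slc39a10 values of 160.3, 162 and 169 in the BA mice and 308 and 352 in the AV mice (log2 fold change 1, SE 0.21, adjusted p = 0.014). The copper transporter Slc31a2 at 41.5, 38.9 and 39.5 against 7.81 and 20.7 and the zinc transporter Slc39a9 at 307, 380.4 and 265 against 105 and 203 (BA against AV mice) were lower, by log2 fold changes of -1.57 and -1.1, and each lost the call when any one of the BA mice was left out. The iron transporter Slc11a2 (-0.16) and the astrocytic zinc importer Slc39a12 (0.61) were not called.

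The 30 carriers of monocarboxylates, lipids, nucleosides, vitamins and other substrates included 13 that fell and 1 that rose (46.7%, beside 29.7% of all genes), with a median of -0.84 (-0.77 with 2 genes at their bound). Slc44a1, which supplies choline for phospholipids, had values of 3713, 4706 and 3448 in the BA mice and 1153 and 1563 in the AV mice (log2 fold change -1.55, SE 0.26, adjusted p = 0.007). The bile acid transporter Slc10a2 had values of 33.9, 27.5 and 39.7 in the BA mice and 3.99 and 12.3 in the AV mice (log2 fold change -2.08, SE 0.42, adjusted p = 0.013). Slc22a5 (OCTN2), the carnitine transporter, had values of 121, 96.6 and 99.2 in the BA mice and 12.9 and 53.2 in the AV mice (log2 fold change -1.95, SE 0.53, adjusted p = 0.034), and its relative Slc22a21 had 17.9, 18 and 14.3 in the BA mice and 2.45 and 4.71 in the AV mice, under the level of 3 reads, at least 2.95-fold lower. These 2 genes share 17.1% and 14.2% of their 75-base stretches, so their reads could be split between them. The monocarboxylate transporters MCT1 (Slc16a1) and MCT2 (Slc16a7) were lower, at 692, 919 and 841 against 378 and 399.8 and 358, 468 and 509 against 266 and 219 (BA against AV mice), with log2 fold changes of -1.06 and -0.87, and Slc16a4 was at least 1.65-fold lower. Slc22a21 and Slc16a4 can have passed the filter through the BA mice alone and so had to differ. Their calls, also those with 1 mouse left out, are no support for a change of the class. The thiamine transporter Slc19a2 (-1.23), Slc10a7 (-1.72), the lysosomal nucleoside transporter Slc29a3 (-0.99), the heme transporter Slc48a1 (-0.97), Slc22a23 (-0.9) and the myo-inositol transporter Slc5a3 (-0.81) made up the rest of the lower calls, as log2 fold changes. The sole call in the other direction was Slc29a1 (ENT1), which carries adenosine, at 22.2, 22.1 and 27 in the BA mice and 165 and 63.3 in the AV mice (log2 fold change 2.07, SE 0.4, adjusted p = 0.011).

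None of the 4 neurotransmitter and osmolyte transporters was called, against 29.7% of all genes. The astrocytic GABA transporter Slc6a11 (GAT3) was at 876, 827 and 554 in the BA mice and 571 and 1044 in the AV mice, with overlapping groups and a log2 fold change of 0.07. The creatine transporter Slc6a8 and the taurine transporter Slc6a6 were below the BA range in both AV mice, with log2 fold changes of -0.65 and -0.63 and adjusted p-values of 0.09 and 0.082. Of 2 vesicular and lysosomal transporters, Slc17a5, a sialic acid exporter, overlapped (-0.02) and Slc18b1, a polyamine transporter, lay above the BA range (log2 fold change 0.98, adjusted p = 0.089). Among 17 members of the Slc35 family, which includes carriers of nucleotide sugars, 1 was called higher and 1 lower (11.8%, beside 29.7% of all genes). Slc35f1 was higher at 23.1, 49.2 and 25.1 in the BA mice and 118 and 154 in the AV mice (log2 fold change 2.11, SE 0.36, adjusted p = 0.0076). Slc35b3, which carries the sulfate donor PAPS, was lower at 68, 98.1 and 121 in the BA mice and 34.1 and 49.7 in the AV mice (log2 fold change -1.16, SE 0.32, adjusted p = 0.034), and Slc35a5, the family member highest per kb, had a log2 fold change of -0.81 and was not called (adjusted p = 0.059). The family's median was -0.39, and it was -0.54 without AV replicate 3 and -0.17 without AV replicate 1. Of 5 genes that bear a carrier's symbol without being one, the scaffold protein gene Slc9a3r1 was higher (log2 fold change 1.43, SE 0.33, adjusted p = 0.019) and Slc2a4rg-ps, which the annotation names as a pseudogene, lower (log2 fold change -1.66, SE 0.23, adjusted p = 0.0043).

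Carriers and partners under other symbols, 43 genes in all, gave 32 values, of which 4 were called higher and 8 lower, beside 13.6% and 16.2% of all genes. Atp1b1, a beta subunit of the sodium pump that powers many Slc carriers, had values of 75.6, 70.7 and 107 in the BA mice and 388 and 251 in the AV mice (log2 fold change 1.90). Wnk3, a kinase that acts on chloride cotransporters, and Vdac1, the pore of the outer mitochondrial membrane, were higher with log2 fold changes of 1.27 and 0.97. The largest decreases were those of Mfsd14a (-1.50), Mtch2 (-1.31) and the lysosomal Mfsd8 (-1.21). In AP mice 0 of 35 were called by limma, beside 0.00846% of all genes, and 2 had an unadjusted p under 0.05 (Slco2b1, log2 fold change 1.53, and Slco3a1, -0.76).

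The second comparison set AP against BA mice. Differences in both directions were found, and no Slc gene passed the test. The largest measured against BA values above the floor were higher values in AP mice. They were those of the fructose carrier Slc2a5, the amino acid exchanger Slc7a8 and the myo-inositol carrier Slc2a13. By limma 0 of 200 were called, beside 1 of 11820 genes (0.00846%), and the smallest adjusted p of an Slc gene was 0.235. At an unadjusted p under 0.05 there were 18 Slc genes (9%) beside 918 of all genes (7.77%). Of the 18, 14 were higher and 4 lower in AP mice, beside 590 higher and 328 lower of the 918. The count of Slc genes was 11 without BA replicate 1, 29 without AP replicate 1 and 10 without AP replicate 3. The counts over all genes in these fits are not given here, so a move of the Slc genes alone cannot be read from them. The groups did not overlap for 24 Slc genes (12%), beside 12.1% of all genes, with 16 higher in AP mice (5.64% of all genes) and 8 lower (6.45%). An absolute log2 fold change over 1 was found for 12 Slc genes (6%), beside 4.67%. The median log2 fold change was -0.04 over the Slc genes and -0.03 over all genes.

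Slc2a5 (GLUT5), a fructose carrier known in brain from microglia, had values of 11.6, 12.2 and 30.2 in the BA mice and 52, 92.7 and 96.1 in the AP mice (log2 fold change 2.18, SE 0.4, adjusted p = 0.237). Slc7a8 had values of 42.5, 35.8 and 109 in the BA mice and 171, 119.6 and 237 in the AP mice (log2 fold change 1.6, adjusted p = 0.392), and Slc37a2, a phosphate-linked glucose 6-phosphate antiporter found in myeloid cells, had values of 21.2, 19.4 and 69.4 in the BA mice and 77, 55.1 and 118 in the AP mice (1.34). In all of these, BA replicate 3 was the highest BA mouse, as it was for the microglial sum. The AP mice, whose microglial sums were higher, lay above BA replicates 1 and 2. Among the AP mice, replicate 2 had the lowest microglial sum and the lowest Slc7a8 and Slc37a2, but Slc2a5 was lowest in replicate 1. For Slc38a1, Slc22a21 and Slc7a5, given below, BA replicate 3 was the lowest BA mouse. A link between any of these values and the microglial sums was not tested. Slc38a1 had values of 68.1, 64.5 and 51 in the BA mice and 130.5, 90.5 and 212 in the AP mice (1.15), Slc22a21 of 23.7, 23.4 and 18.5 in the BA mice and 43, 45 and 50.6 in the AP mice (1.05) and Slc2a13, a proton-coupled myo-inositol carrier, of 9.46, 27.6 and 14.3 in the BA mice and 29.3, 50.2 and 49.6 in the AP mice (1.37). Slc30a3 (ZnT3), which loads zinc into synaptic vesicles, was at the lowest value of the table, 2, in all 3 BA mice and at 5.41, 8.38 and 10.7 in the AP mice, at least 1.43-fold higher, and it can have passed the filter through the AP mice alone. The light chain Slc7a5 (LAT1) was at 111, 104 and 101 in the BA mice and 139.6, 167 and 175 in the AP mice (0.6), with no overlap.

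Other Slc genes with an unadjusted p under 0.05 and higher values in AP mice were Slc39a8 (1.17), Slc35f1 (1.21), Slc9a5 (0.9), Slc9a3r1 (0.87), the monocarboxylate carrier Slc16a6 (0.67) and Slc27a6 (0.98), as log2 fold changes. The 4 with lower values were Slc35f3 (-1.1), the monocarboxylate carrier Slc16a3 (-0.73), Slc25a27 (-0.7) and Slc38a9 (-0.52). Slc25a27 had values of 617, 436 and 419 in the BA mice and 352, 280.4 and 263 in the AP mice, and Slc38a9 values of 399, 390.5 and 469 in the BA mice and 343, 269.8 and 268 in the AP mice, both without overlap. The lower values of Slc25a29 and Slc29a1 (-1.35 and -1.06) rested on AP replicate 3, which was at the lowest value, 2, for both, as for 114 genes in all against 9 to 37 in the other mice. Without it they were -0.11 and 0.01.

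**Figure D4:**
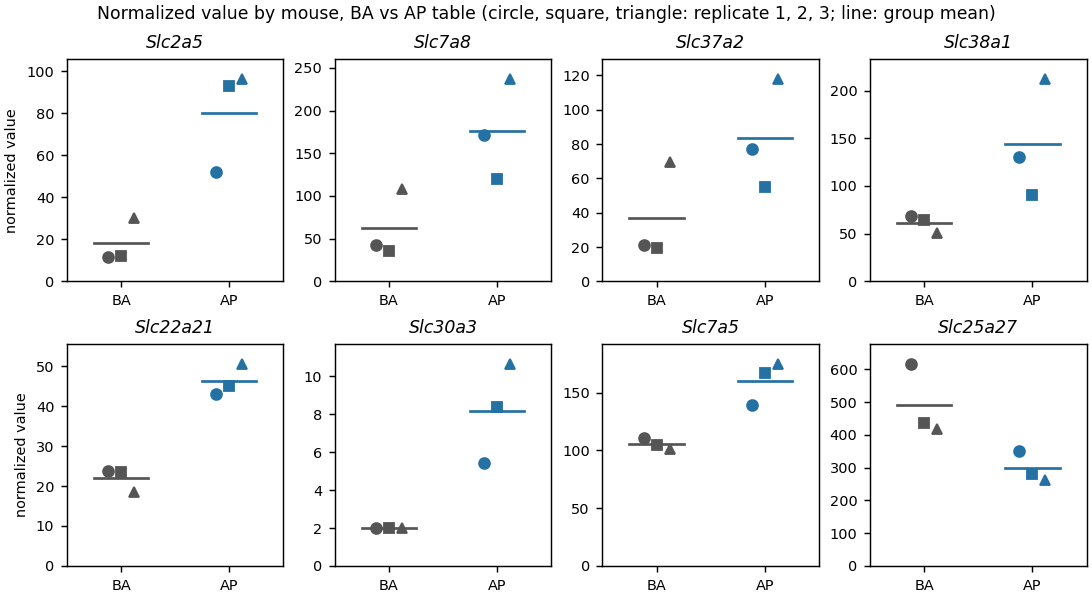
Normalized value (linear axis from 0) of 8 Slc genes in each mouse of the BA vs AP table. Grey marks are BA mice, blue marks AP mice, the shape gives the replicate number and the line the group mean. Slc37a2 overlaps, the other 6 higher genes and the lower Slc25a27 do not, and none of the 8 passed an adjusted p of 0.05.

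By class, the amino acid transporters had the highest median of the larger classes in AP mice, 0.30. With 1 mouse left out this median ran from 0.03 to 0.26. Of these transporters 16 of 25 were above 0, beside 5491 of all 11820 genes. The medians of mitochondrial carriers (-0.06), inorganic ion (-0.08), metal ion (0.08) and sugar transporters (0.04) and of the Slc35 family (-0.04) were within 0.1 of 0. Several carriers tied to neurons or astrocytes varied widely among the AP mice. Slc12a5 had values of 37.2, 36.8 and 25.3 in the BA mice and 17.9, 53 and 209.6 in the AP mice. Slc25a22 had 56.3, 36.8 and 46.1 in the BA mice and 47.5, 60.8 and 132 in the AP mice. Slc2a3 had 24.3, 35.9 and 39 in the BA mice and 41.7, 38.3 and 75.5 in the AP mice. AP replicate 3 was the highest mouse in each, as it was in the pyramidal marker sum. Slc2a3 of AP replicate 2 lay within the BA range and below AP replicate 1, though their pyramidal sums were 1537 and 118. Slc1a3 had values of 2189.8, 1642 and 2339.8 in the BA mice and 1573, 6084 and 3333 in the AP mice. Slc4a4 had 1749.7, 1549 and 1739 in the BA mice and 1346, 3095 and 1712 in the AP mice. Slc39a12 had 249, 278 and 361 in the BA mice and 210.1, 518 and 263 in the AP mice. Slc7a11 had 768, 393 and 773 in the BA mice and 426, 1268 and 799 in the AP mice. AP replicate 2 was the highest mouse in each, as in the astrocyte sum. In AP replicate 3, whose astrocyte sum also lay above the BA mice, Slc1a3 and Slc7a11 did so too, and Slc4a4 and Slc39a12 did not. The part of marker levels in these values was not tested.

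The abundant carriers that were lower in AV mice and are named next overlapped between AP and BA mice. Slc12a2 had values of 8007, 11095 and 9107 in the BA mice and 8741, 7775 and 6237 in the AP mice (log2 fold change -0.31 against -1.94 in AV mice), and Slc24a2 values of 5416, 6601 and 6885 in the BA mice and 5652, 3935 and 3599.8 in the AP mice (-0.54 against -1.85). Slc44a1 gave -0.15 against -1.55, Slc38a2 -0.25 against -1.59, Slc6a9 -0.45 against -1.91 and Slc16a1 -0.19 against -1.06. Slc2a1, not called in AV mice, gave 0.06 against -0.77. Oligodendrocyte sums overlapped between AP and BA mice as well. Among carriers higher in AV mice, Slc7a8 gave 1.6 against 2.54, Slc38a1 1.15 against 1.79, Slc35f1 1.21 against 2.11 and Slc12a5 0.83 against 2.26. Slc22a21 gave 1.05 in AP mice and was at least 2.95-fold lower in AV mice. Slc25a4, Slc25a5 and Slc25a3 gave 0.32, 0.13 and 0.21 in AP mice, and Slc25a12 -0.18. Slc6a11 stood at -0.24, Slc8a1 at -0.1 and Slc3a2 at 0.12. These pairs of values share the BA mice, come from separately normalized tables, and the difference between them was not tested.

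**Figure D5:**
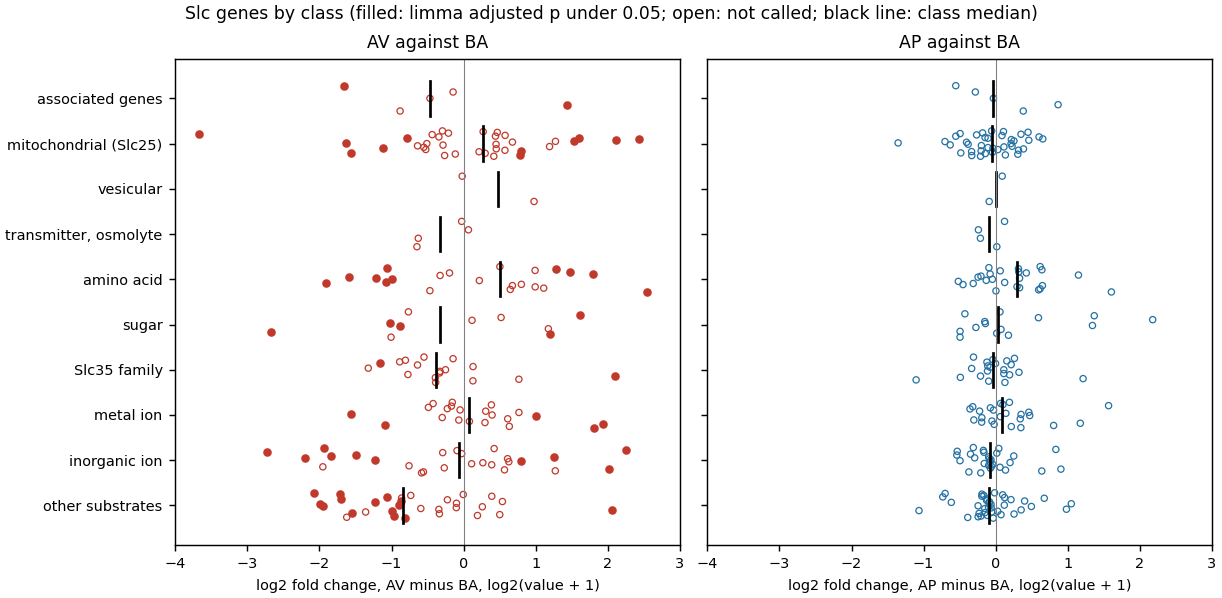
Log2 fold change of each Slc gene on the log2(value + 1) scale, by class, for AV minus BA (left, 171 genes) and AP minus BA (right, 200 genes), with the class median as a black line. Filled points passed an adjusted p of 0.05 over all genes of the table and open points did not. The left panel holds 59 filled points, 22 to the right of 0 and 37 to the left, and the right panel none.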

How the data were processed

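Amygdala cells of Thy1-YFP mice were sorted for YFP, and stranded paired-end libraries were made from ultra-low input RNA. The authors deposited a normalized signal per gene and mouse in 2 tables, after TMM normalization and a filter on low counts. Their methods also name ARSyN batch correction, and do not state whether both tables had it. Which samples made up a batch is not given in the sources used here, so the correction cannot be set against the groups. The submitters' processing notes list bcl2fastq 2.20, Salmon 1.2 and GRCm38.p6. The tables hold no read counts, so the depth behind each value is not given here and no counting interval was computed. In the BA vs AP table most low values lie on steps of 1 read, from which the level of 3 reads was taken as at most 5.68 units, and the same level was used for the BA vs AV table. 1 AV mouse, which the authors removed as an outlier, was not used.

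Symbols were taken from the Ensembl IDs. The Slc genes, their classes, the marker lists and the rule for named genes were chosen with earlier results of these data known. Named were, in each class, the 3 called genes with the largest increase and the 3 with the largest decrease (the largest of each where none was called), the gene highest per kb in BA mice, and a list of well-known transporters. The remaining called genes and those with an unadjusted p under 0.05 were named after their values were seen. A few named genes are not reported here. Each table had a fit of its own, by limma (version 3.58.1, R version 4.3.3), of log2(value + 1) for every gene it lists, without covariates, and calls were made at 0.05 after Benjamini-Hochberg adjustment. Fold changes are on that scale, which understates changes of low genes. The p-values measure the spread between the mice used, in the values as deposited. Batch correction, where applied, and the removal of 1 AV mouse as an outlier may have narrowed that spread, which was not tested. The fit was tested on simulated data with 200 changed genes. In the AV design it recovered 0% of log2 changes of 1, 82.5% of 2 and 93% of 3. In the AP design the shares were 23.5%, 79% and 92.5%. The simulations changed 200 of 9872 and of 11820 genes and gave all mice the spread of the BA mice. In the AV comparison 29.7% of all genes were called, so these shares do not carry over to it. Shared 75-base stretches were counted over annotated transcripts. Promoter sequences are from RefSeq on GRCm38.p6, with an entry for 19 of 22, 28 of 37 and 88 of 112 Slc genes called higher, lower and not called. Alternatives were other pseudocounts, filters, centring, variance prior, threshold, a replicate block and leaving out each mouse.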

Additional observations from a re-analysis of the deposited data

How the results depend on the processing

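The 59 Slc genes called in AV mice became 59 and 64 with pseudocounts of 0.5 and 5, 56 and 52 among genes with a mean of at least 20 and 50, 60 with each mouse centred on its median and 66 with a variance prior that follows the mean. At an adjusted p under 0.01 the count was 21, and with 1 mouse left out it ran from 27 to 70, with 22 genes called in all 5 such fits. No called gene changed direction in any of these. The matching counts over all genes are not given here, so a move of the Slc genes alone cannot be read from these counts. The labels state no link between mice with the same replicate number. Their deviations from the group means correlated at -0.06 and -0.04 across genes for BA and AV mice. For BA and AP mice they correlated at 0.02, 0.12 and 0.08, and each AP mouse correlated best with the BA mouse of its own number. The deviations of AV replicate 1 mirror those of AV replicate 3, so the AV correlations cannot show whether such mice are linked. With the replicate block, a fit with fewer residual degrees of freedom, 20 Slc genes were called in AV mice and 0 in AP mice. Of the 61 Slc genes named in the AV comparison, 25 were called without the block and not with it. Centring moved the median of all genes from -0.03 to -0.10. In AP mice 0 Slc genes were called under every setting run, while 10 to 29 had an unadjusted p under 0.05. Among class medians, that of the mitochondrial carriers in AV mice ran from -0.062 to 0.31 with 1 mouse left out, and that of the sugar transporters in AV mice was 0.12 among genes with a mean of at least 50. The sugar median of AP mice ran from -0.076 to 0.076 with 1 mouse left out. The cause of these moves was not tested. The tables carry no read counts per library, and 2 AV mice limit the precision of that comparison.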

Other observations

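Slc genes with a value in one table alone add a few transporters of known cell types. Slc1a1 (EAAC1), the glutamate transporter of neurons, had values of 294, 512 and 232 in the BA mice and 479.5, 422 and 334 in the AP mice, with overlapping groups and a log2 fold change of 0.32. The iron exporter Slc40a1 (ferroportin) had values of 43.6, 48.1 and 95.2 in the BA mice and 66.8, 97.6 and 166 in the AP mice, and its log2 fold change was 0.8 (limma, unadjusted p = 0.081). Slc38a3 (SNAT3), by which astrocytes release glutamine, was at 287, 176 and 399 in the BA mice and 253, 523 and 304 in the AP mice (0.33), and Slc5a7, the choline importer of cholinergic neurons, at 18, 31.7 and 17.9 in the BA mice and 40.7, 15.5 and 15 in the AP mice (-0.03). In the BA vs AV table alone, the cationic amino acid transporter Slc7a2 was at 160.1, 154 and 358 in the BA mice and 262 and 766 in the AV mice, a log2 fold change of 1.11 that was not called (adjusted p = 0.166). These genes were chosen after their values were seen, apart from Slc1a1 and Slc40a1.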
